A study of Mus musculus with 4 samples.

Results

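The loci described here were those of 10 genes of transforming growth factor-beta (TGF-beta) signalling: the ligand Tgfb1, the receptors Tgfbr1 and Tgfbr2, the signal transducers Smad2, Smad3 and Smad4, the inhibitory Smad6 and Smad7, and the co-repressors Ski and Skil. Each locus was the gene body with 20 kb on each side in mm10, and every ATAC-seq peak overlapping that window was taken, whatever its height. Merging the overlapping peaks of the WT and KO lists gave 54 accessible regions in the 10 windows, out of 45475 on the autosomes and chromosome X. They came from 47 of 37887 WT peaks and 50 of 37615 KO peaks.

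ATAC-seq marks open chromatin by letting a transposase insert sequencing adapters into accessible DNA. The cells were hematopoietic stem cells (HSCs) sorted from the bone marrow of adult C57BL/6 mice as LSK CD150+CD34-CD48- cells by the labels (the methods give CD150+CD48- LSK, with no CD34 gate), where LSK denotes cells lacking lineage markers and positive for Sca-1 and Kit. WT mice carried floxed Med23 alleles and no cre, and KO mice carried the same floxed alleles with Mx1-cre, an interferon-inducible cre that deletes Med23, a subunit of the Mediator complex, after poly(I:C) injection. Mx1-cre is active in other hematopoietic and non-hematopoietic cells besides HSCs, so the deletion was not restricted to the sorted cells, and whether cre-negative mice received poly(I:C) was not stated for these samples. There were 2 samples per genotype, but the labels of both name the same peak list, so each genotype had 1 list, no difference has a replicate check, and no p-value is given. In bulk chromatin, a more open site in each cell and a site open in more of the cells cannot be told apart.

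TGF-beta ligands bind a type II receptor kinase, encoded by Tgfbr2, which activates the type I receptor encoded by Tgfbr1. The type I receptor phosphorylates SMAD2 and SMAD3, which join SMAD4 and bind DNA at short elements such as CAGAC, which reads GTCTG on the other strand, or at a palindrome of 8 bases, GTCTAGAC. SMAD6 and SMAD7 restrain the receptors, SKI and SKIL (SnoN) repress SMAD complexes on DNA, and Smad7 and Skil are themselves well-known targets of the pathway, which gives it negative feedback. In the bone marrow TGF-beta is known for holding HSCs in quiescence.

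Sequences at 5 of the promoters are shown because the receptors and SMADs set whether a cell can respond to the ligand, and because SMAD elements can be looked for in them. RefSeq promoter sequences (GRCm38.p6, the reference of mm10) were found for 6 of the 10 genes. The 250 bases upstream of the start site are printed 5′ to 3′ in the direction of transcription, with 2 SMAD elements in capitals wherever they occur on either strand, CAGAC and the GC-rich GGCGC. They lie at chr7:25686752-25687001 (plus strand) for Tgfb1, chr4:47352972-47353221 (plus) for Tgfbr1, chr9:116175364-116175613 (minus) for Tgfbr2, chr9:63757995-63758244 (minus) for Smad3 and chr9:64022060-64022309 (minus) for Smad6.
Tgfb1 promoter: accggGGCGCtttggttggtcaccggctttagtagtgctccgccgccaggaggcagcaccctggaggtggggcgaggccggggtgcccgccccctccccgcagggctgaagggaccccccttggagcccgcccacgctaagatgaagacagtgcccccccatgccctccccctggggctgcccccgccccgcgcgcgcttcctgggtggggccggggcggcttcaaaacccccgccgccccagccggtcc
Tgfbr1 promoter: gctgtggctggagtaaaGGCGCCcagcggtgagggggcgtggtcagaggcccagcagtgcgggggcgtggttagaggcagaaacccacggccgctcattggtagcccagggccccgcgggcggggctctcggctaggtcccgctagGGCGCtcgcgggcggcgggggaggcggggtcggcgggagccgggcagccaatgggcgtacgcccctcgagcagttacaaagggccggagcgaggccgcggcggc
Tgfbr2 promoter: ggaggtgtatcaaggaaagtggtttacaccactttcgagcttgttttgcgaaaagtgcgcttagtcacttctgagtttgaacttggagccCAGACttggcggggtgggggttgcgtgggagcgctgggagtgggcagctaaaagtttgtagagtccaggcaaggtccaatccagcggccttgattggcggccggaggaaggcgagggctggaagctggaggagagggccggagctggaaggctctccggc
Smad3 promoter: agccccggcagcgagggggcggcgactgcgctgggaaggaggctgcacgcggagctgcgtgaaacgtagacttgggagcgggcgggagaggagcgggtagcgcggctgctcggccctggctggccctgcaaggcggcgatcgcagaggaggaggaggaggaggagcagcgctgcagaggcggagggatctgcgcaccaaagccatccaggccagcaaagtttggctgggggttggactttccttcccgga
Smad6 promoter: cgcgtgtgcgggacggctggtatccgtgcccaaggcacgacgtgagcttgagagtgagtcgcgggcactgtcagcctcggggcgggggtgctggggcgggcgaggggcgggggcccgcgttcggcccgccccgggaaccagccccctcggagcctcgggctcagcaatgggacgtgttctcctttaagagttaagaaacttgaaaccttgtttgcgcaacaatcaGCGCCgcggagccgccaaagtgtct
The merged accessible regions covered these stretches, except that the first 26 bases shown for Tgfb1, which hold its capitals, lay before its region. In the whole 300-base RefSeq windows, from 250 bases before the start to 50 after it, CAGAC was present once at Tgfbr2 and absent from the other 4 of these promoters. It was found in 49.5% of all 32619 RefSeq promoter windows. Tgfbr1 had a second RefSeq window, which held 1 CAGAC, overlapped no accessible region and is not shown. The GC-rich element was found in the windows of Tgfb1, Tgfbr1 and Smad6, and in 37.0% of all windows. The RefSeq window of Ski did not overlap its promoter peak, which lay further upstream, and is not shown.

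All 10 promoters were accessible in both genotypes. A region counted as the promoter of a gene by its summit, the position of highest read pileup. The summit had to lie within 1000 bp of the start of a protein-coding transcript of that gene. The pileup is the number of extended reads or fragments covering the summit, recovered from the statistics of the peak caller, and was between 33 and 99 at these promoters in WT (median 47) and between 19 and 100 in KO (median 40.5). Across all promoter regions the median was 31 in each list, so 10 of 10 members lay above it in WT and 8 of 10 in KO. Of all 13601 promoter regions, 87.9% were in both lists.

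**Figure D1:**
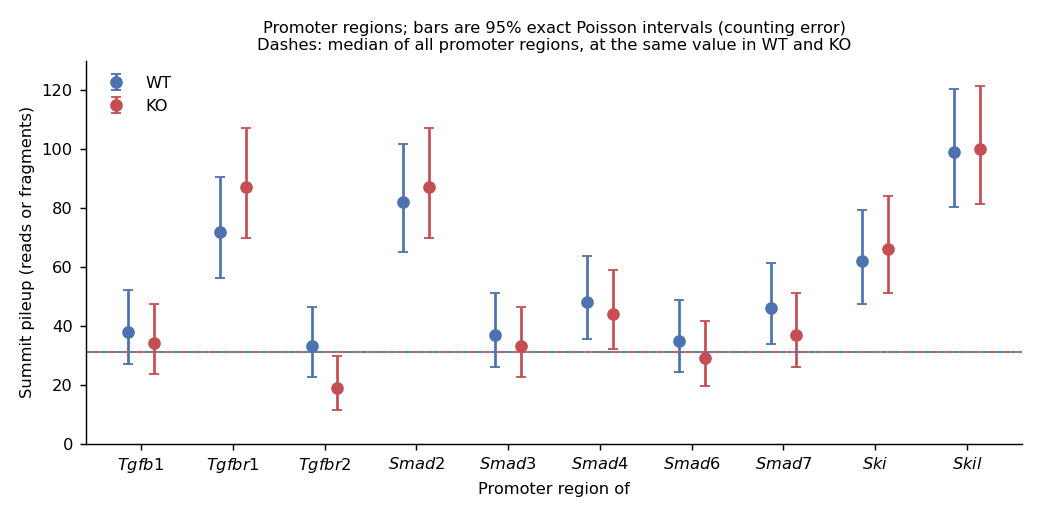
Summit pileup (number of reads or fragments, y axis) at the promoter region of each of the 10 genes (x axis) in the WT list and the KO list; bars are 95% exact Poisson intervals, which cover counting error only, and the dashes mark the median of 31 over all promoter regions. The WT and KO intervals overlap at every gene; the widest relative gap is at Tgfbr2, with 33 in WT and 19 in KO.

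The promoter of the ligand gene Tgfb1 (ENSMUSG00000002603.15, chromosome 7, 25687002 to 25705077, plus strand) had a pileup of 38 in WT and 34 in KO. Its summit lay in the 5′ part of the gene, 187 bp after the start in WT and 169 bp after it in KO. The 2 values differed by less than their counting error.

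The promoters of both receptor genes were open in each list, and the centred ratio was below 0 at the type II receptor. At Tgfbr1 (chromosome 4, 47353222 to 47414931, plus strand), the type I receptor, the promoter pileup was 72 in WT and 87 in KO. At Tgfbr2 (chromosome 9, 116084293 to 116175360, minus strand), the type II receptor that binds the ligand, it was 33 in WT (95% exact Poisson interval 22.7 to 46.3) and 19 in KO (11.4 to 29.7). Relative to the median KO to WT ratio over all 28909 regions that hold 1 WT and 1 KO peak, which was 1.058-fold, the log2 ratio was 0.19 at Tgfbr1 (95% binomial interval -0.28 to 0.66) and -0.88 at Tgfbr2 (-1.77 to -0.02). All log2 ratios given from here on are such centred ratios of pileup. The Tgfbr2 promoter was the only one of 41 member regions with a ratio whose interval left out 0, where 3.45% of all regions did so; the interval covers counting error only.

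The summit of the Tgfbr2 promoter was at nearly the same place in both lists, 144 bp after the start in WT and 148 bp in KO, inside the 5′ UTR. The peak was no narrower in KO, with a width of 1577 bp in WT against 1680 bp for KO. The authors' fold enrichment, the pileup over the local background with a pseudocount added to both, was 7.92 in WT against 5.55 in KO. The intervals of the log2 ratios at Tgfbr1 and Tgfbr2 overlapped, and the difference between the 2 receptor genes was not tested.

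Among the signal transducers, Smad2 had the most open promoter, with a pileup of 82 in WT and 87 in KO and a log2 ratio of 0.00 (-0.45 to 0.46). Smad3 had 37 in WT and 33 in KO (log2 ratio -0.25, -0.97 to 0.47). Smad4, the common partner of both, had 48 in WT and 44 in KO (-0.21, -0.83 to 0.41). The order of the 3 promoters was the same in both lists, with Smad2 highest and Smad3 lowest, and the Poisson intervals of Smad3 and Smad4 overlapped in each list while those of Smad2 and Smad3 did not. Smad2 lies on chromosome 18 at 76241580 to 76310963 (plus strand), Smad4 on chromosome 18 at 73639009 to 73703780 (minus strand), and Smad3 on chromosome 9 at 63646767 to 63757994 (minus strand).

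Both inhibitory SMAD genes had lower centred values in KO, within counting error. The promoter of Smad6 (chromosome 9, 63953076 to 64022059, minus strand) had a pileup of 35 in WT and 29 in KO (log2 ratio -0.35, -1.11 to 0.40). That of Smad7 (chromosome 18, 75367529 to 75395935, plus strand) had 46 in WT and 37 in KO (-0.40, -1.06 to 0.26). At Smad6 the summit was 910 bp upstream of the start in WT and 86 bp upstream in KO, 824 bp apart within 1 peak of each list, so the pileups were not read at the same base. At Smad7 the summits were 312 and 143 bp upstream.

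The co-repressor genes had high and nearly level promoters. Skil (chromosome 3, 31095058 to 31122577, plus strand) had the highest pileups of the 10 genes, 99 in WT and 100 in KO (log2 ratio -0.07, -0.48 to 0.35), with summits 355 and 356 bp upstream. Ski (chromosome 4, 155154075 to 155222592, minus strand) had 62 in WT and 66 in KO (0.01, -0.51 to 0.53), with summits 692 and 779 bp upstream of the annotated start. These values were at percentiles 98.0 and 97.7 of all peaks for Skil in WT and KO, and at percentile 93.0 in each list for Ski.

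The direction of the 10 promoters depended on the scale. By centred pileup, 3 were above 0 and 7 below, with a median of -0.22, where the median of all promoter regions with a ratio was -0.08. By the authors' fold enrichment, 9 of 10 were higher in KO, and Tgfbr2 was the exception, but the median ratio of all regions was itself 1.198-fold on that scale (0.26 on the log2 scale) and 81.5% of 11685 promoter regions were higher. Centred on that shift, 7 of 10 were above 0, with a median of 0.07. Centred instead on regions of like pileup, 1 of 10 was above 0 and 9 below, with a median of -0.23. Of all 11685 promoter regions, 42.9% were above 0 by centred pileup, 52.3% by centred fold enrichment and 41.7% against regions of like pileup. The Tgfbr2 promoter was lower in KO on each of these scales, which all start from the same pair of pileups and are not independent checks.

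Of the 44 regions that were not promoters, 24 had their summit in an intron of the member gene. The windows were drawn around the gene bodies, so this count follows in part from the windows. The share over all regions was not taken. Of the 54 summits, 27 lay inside the member gene itself, 24 of them in its introns, and 43 lay nearer to the start of the member than to that of any other protein-coding gene. The other 11 included 7 of 9 in the window of Tgfb1, which is crowded with the neighbours Tmem91, B9d2 and Ccdc97, and 2 of 5 in that of Skil, nearest to Cldn11. The last 2 were at the far ends of the Smad4 and Ski windows. Ski had the most regions whose nearest start was its own, 8, followed by Tgfbr2 and Smad3 with 6 each, while Smad2 had 2.

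The promoter was not always the most open region of its gene. Among the regions nearest to the start of the member, the highest pileup was at the promoter in 9 of 10 genes in WT, with Tgfb1 as the exception, and in 6 of 10 in KO. In KO the highest region was an intron region at Tgfb1, Tgfbr2, Smad3 and Smad7. At Smad7 this was the region 25083 bp after the start, with a pileup of 39 in WT and 43 in KO, and at Smad3 the one 31178 bp after it, with 29 in WT and 46 in KO. In KO the Poisson intervals of this region and of the promoter overlapped at Tgfbr2, Smad3 and Smad7, and did not at Tgfb1. The Tgfb1 intron region lay 383 bp after the start of a Tgfb1 transcript that is not annotated as protein-coding.

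**Figure D2:**
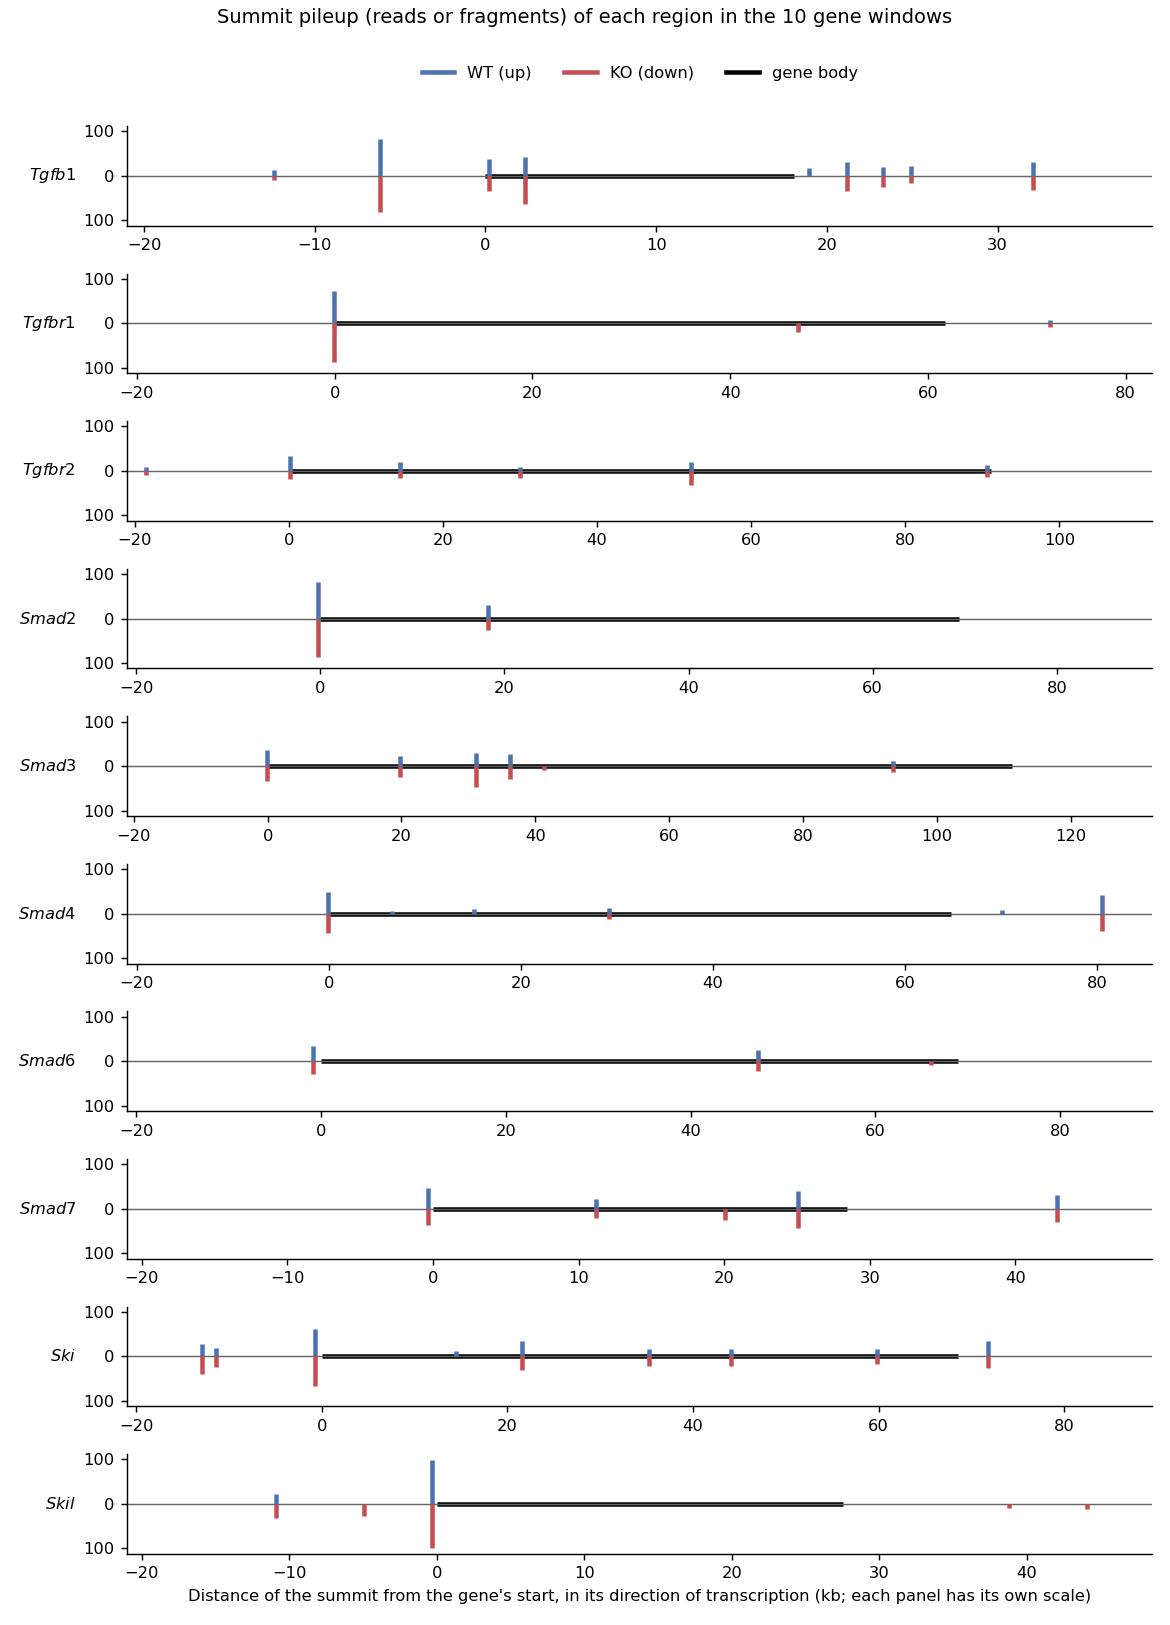
Each panel is 1 gene window, with distance of the summit from the start of the gene in kb on the x axis and the summit pileup on the y axis, WT drawn upwards and KO downwards; the black line is the gene body. In WT the tallest stick is at or near the start of each gene apart from Tgfb1, where it is the B9d2 promoter 6180 bp upstream; in KO, Tgfbr2, Smad3 and Smad7 have a taller stick in an intron, and the sticks drawn on 1 side only reach 18 in WT and 26 in KO.

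Of the 54 regions, 42 were in both lists (77.8%, 95% exact binomial interval 64.4 to 88.0), 5 had a WT peak alone and 7 a KO peak alone. Over all regions, 64.8% were in both lists, 18.1% in WT only and 17.2% in KO only. The 10 promoter regions are part of this share: without them, 32 of 44 regions (72.7%, 57.2 to 85.0) were in both, where 54.9% of all regions that are not promoters were. The regions of a locus are neighbours on the chromosome and are not replicates, so no test was made of these shares. In windows of 10 kb and of 50 kb on each side, which hold 43 and 80 regions, the shares in both lists were 76.7% and 77.5%.

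The pileups of the regions found in 1 list were 7 to 18 for the 5 WT-only regions, none above the median of 18 of the WT list, and 8 to 26 for the 7 KO-only regions, 3 of them above the median of 19 of the KO list. None of the WT-only regions reached a −log10 q of 10 and 2 of the KO-only regions did. The median −log10 q was 3.57 for these WT-only regions and 4.88 for these KO-only regions. Over all regions found in 1 list it was 3.96 for WT only and 5.13 for KO only. The shares of all such regions past 10, or above the median pileup, were not taken. Absence from a list means only that no peak was called there. The strongest at each gene among those with a −log10 q of at least 5 were at Tgfbr1, Smad7, Ski, Smad4 and Skil.

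The strongest of them was in an intron of Tgfbr1 and had a pileup of 20 in the KO list (95% exact Poisson interval 12.2 to 30.9, −log10 q 15.2) and no peak in the WT list. A KO-only region in an intron of Smad7, 20038 bp after the start, had a pileup of 25 (16.2 to 36.9, −log10 q 14.6). The third was 44090 bp after the start of Skil, beyond the gene and nearest to Cldn11, with 11 (5.49 to 19.7, −log10 q 5.64). In the WT list only were a region in an intron of Ski, 14460 bp after the start, with a pileup of 13 (6.92 to 22.2, −log10 q 7.79), and a region in an intron of Smad4, 15129 bp after the start, with 11 (5.49 to 19.7, −log10 q 5.80). Below a −log10 q of 5, further KO-only regions lay at Smad3, Smad6 and Skil, and further WT-only regions at Tgfb1 and Smad4. Which genes are named here thus depends on that limit, and no pattern by pathway role is read from them.

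For the 41 regions that 1 peak of each list made up, the summit pileups were close in WT and KO. The median log2 ratio was -0.08 (95% interval from order statistics -0.21 to 0.06), with 17 regions above 0 and 24 below, and the range was -0.88 to 0.66. Over all regions the middle 90% spanned -0.69 to 0.68. The Tgfbr2 promoter and 1 region of the Tgfb1 window lay below that range and no member region lay above it. At least 1.5-fold higher in KO were 2 of 41 and at least 1.5-fold lower 2 of 41, where 7.64% and 7.91% of all regions were. The summits of the 2 lists lay a median of 64 bp apart, where the median over all such regions was 42 bp. In 32 of the 41 regions they lay within 100 bp, where 74.5% of all such regions did.

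**Figure D3:**
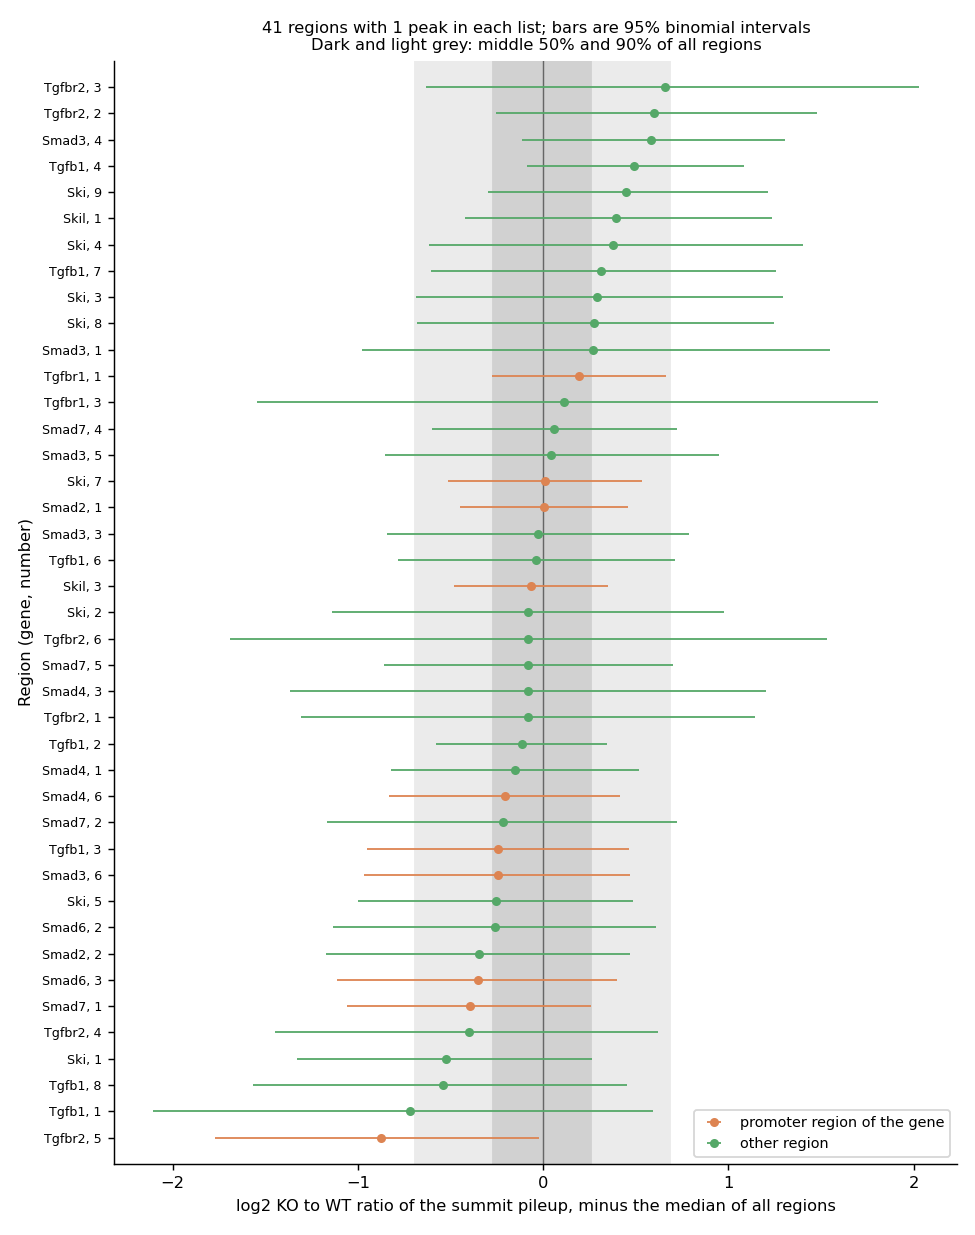
Centred log2 KO to WT ratio of the summit pileup (x axis) for the 41 regions that hold 1 WT and 1 KO peak (y axis, gene and region number in order of position), with 95% binomial intervals that cover counting error only; the dark and light grey bands hold the middle 50% and 90% of all regions. All intervals but that of the Tgfbr2 promoter at -0.88 include 0, and the highest value is 0.66.

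The 3 highest ratios were in introns of Tgfbr2 and Smad3. A region 29947 bp after the start of Tgfbr2 (chromosome 9, 116145074 to 116146016) had a pileup of 9 in WT and 15 in KO (log2 ratio 0.66, -0.63 to 2.03). Another, 52161 bp after the start (116122689 to 116123810), had 20 in WT and 32 in KO (0.60, -0.25 to 1.48). The third, 31178 bp after the start of Smad3 (chromosome 9, 63726535 to 63727223), had 29 in WT and 46 in KO (0.58, -0.12 to 1.31), just inside the 1.5-fold limit. All 3 were higher in KO and all 3 intervals included 0, so none was distinguishable from the median ratio at this depth.

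Of the 6 regions of Tgfbr2, 2 in its introns were thus among the highest of the 41 and its promoter was the lowest. The remaining 3 were an intron region 14381 bp after the start with 20 in WT and 16 in KO, a region at the 3′ UTR with 13 in both lists, and a region 18546 bp upstream with 8 in both lists. The Tgfbr2 locus therefore spanned the full range of ratios seen in the 10 windows.

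The other low ratios were in the window of Tgfb1 but nearer to its neighbours. A region in an intron of Tmem91, 12373 bp upstream of Tgfb1, had a pileup of 14 in WT and 9 in KO (log2 ratio -0.72, -2.11 to 0.59). A region in a UTR of Ccdc97, 24949 bp after the start of Tgfb1, had 22 in WT and 16 in KO (-0.54, -1.57 to 0.45). The 2 regions nearest to the start of Tgfb1 itself were the promoter and an intron region 2308 bp after the start, which had 43 in WT and 64 in KO (0.49, -0.09 to 1.08), the fourth highest ratio of the 41.

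The sequences around the summits of the 3 regions with the highest KO to WT ratios and around the WT-only intron region of Ski are shown, since these are among the places where the 2 lists differed most outside the promoters. Each is the 200 bp centred on the summit, plus strand, marked as above, at chr9:116145313-116145512 and chr9:116123099-116123298 for Tgfbr2, chr9:63726716-63726915 for Smad3 and chr4:155208032-155208231 for Ski.
Tgfbr2 intron, 29947 bp after the start: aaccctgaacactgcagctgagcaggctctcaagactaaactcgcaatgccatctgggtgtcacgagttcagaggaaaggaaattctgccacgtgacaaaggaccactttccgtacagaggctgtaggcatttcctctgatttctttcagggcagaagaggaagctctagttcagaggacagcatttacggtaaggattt
Tgfbr2 intron, 52161 bp after the start: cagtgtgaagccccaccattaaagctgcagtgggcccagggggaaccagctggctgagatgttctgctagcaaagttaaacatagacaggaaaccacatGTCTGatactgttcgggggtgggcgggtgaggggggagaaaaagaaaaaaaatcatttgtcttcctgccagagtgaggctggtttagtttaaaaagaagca
Smad3 intron, 31178 bp after the start: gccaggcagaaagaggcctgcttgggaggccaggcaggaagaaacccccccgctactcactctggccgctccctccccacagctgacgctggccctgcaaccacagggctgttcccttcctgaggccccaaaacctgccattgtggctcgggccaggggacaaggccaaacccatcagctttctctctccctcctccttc
Ski intron, WT list only: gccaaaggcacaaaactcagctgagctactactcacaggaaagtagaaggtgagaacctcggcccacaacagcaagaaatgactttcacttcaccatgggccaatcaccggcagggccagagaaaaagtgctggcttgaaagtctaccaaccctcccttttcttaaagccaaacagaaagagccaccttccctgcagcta
A single GTCTG, in the second of the 4, was the only SMAD element found in them. The RUNX motif TGTGGT or its complement was present in the second and in the Smad3 window, the PU.1 motif GAGGAAG in the first, and the SP and KLF motif GGGCGG in the second. The Ski window held none of the 10 motifs searched.

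Short SMAD elements were found in many accessible regions of the genome. Within 200 bp centred on the summit, CAGAC on either strand was present in 26 of the 54 member regions (48.1%) and in 38.6% of all 45475 regions. At least 2 copies were present in 13 of 54 (24.1%) and in 9.34% of all. The Skil promoter, with 4 copies of CAGAC and 4 of GGCGC, held the most, where 0.288% of all regions had 4 or more copies of CAGAC. The GC-rich element GGCGC was present in 25.9% of the member regions and 27.3% of all, but promoters were a smaller part of the member regions. Taken by class, it was in 7 of 10 member promoters, where 59.9% of all promoter regions held it. Outside promoters it was in 15.9% of the member regions and 13.5% of all. The median GC content was 55.2% in member regions and 52.5% in all. Outside promoters it was 52.5% and 49.0%, and at the member promoters it was above the 65.0% of all promoter regions.

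The palindrome GTCTAGAC, which reads the same on both strands and contains neither CAGAC nor GGCGC, was found in 2 member regions, both at promoters of inhibitory SMAD genes. At Smad7 it lay 353 to 346 bp before the start and 37 bp from the summit. At Smad6 it spanned the start itself, from 4 bp before to 3 bp after the first base, at chr9:64022056-64022063, and is shown with 10 bases on each side on the minus strand.
Smad6 start: ccgccaaagtGTCTAGACtggcatatga
Searched over their whole length, 2 of 54 member regions (3.7%) held the palindrome, with 287 of all 45475 regions (0.631%) and 116 of the 13601 promoter regions (0.853%). The member regions were longer, with a median of 834 bp and 659 bp in all regions. Within the 200-bp windows it was present in 1 member region (1.85%), the Smad7 promoter, and in 0.15% of all. A match is a description of the letters and does not show that a SMAD was bound.

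Motifs of blood transcription factors were present beside the SMAD elements. TGTGGT, bound by RUNX factors, was in 15 of 54 regions (27.8%, and 20.5% of all). Of the 44 that were not promoters it was in 14 (31.8%), where 25.5% of all regions that are not promoters held it. GAGGAAG, bound by the ETS factor PU.1, was in 22.2% and 16.8%, and CGGAAG, bound by other ETS factors, in 20.4% and 11.7%. AGATAA, bound by GATA factors, was in 2 regions (3.7%, and 8.81% of all). TGANTCA, bound by AP-1, was in 9.26% and 8.11%, GGGCGG, bound by SP and KLF factors, in 31.5% and 23.8%, and TGACGT, bound by CREB and ATF factors, in 1.85% and 4.76%. Both strands were searched, and no share was tested.

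**Figure D4:**
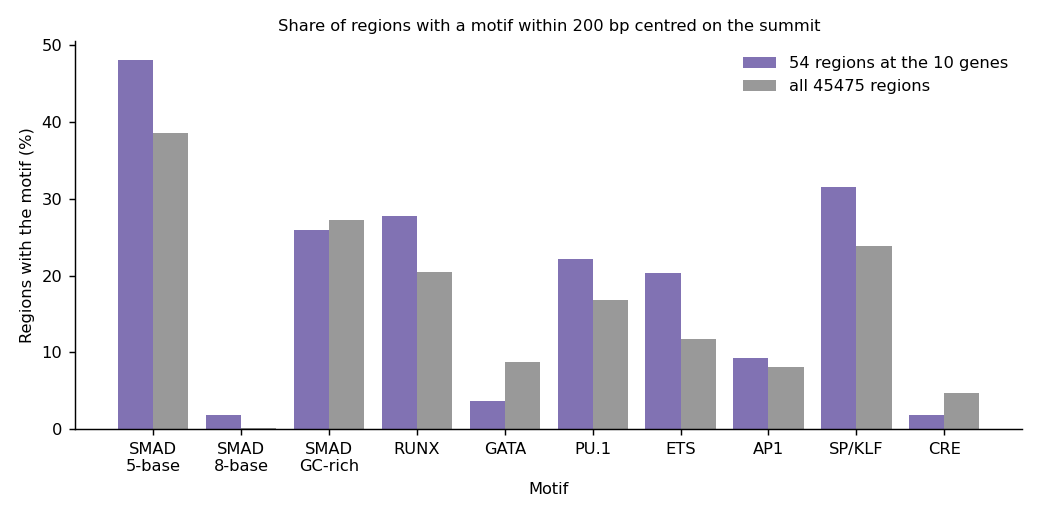
Share of regions (%, y axis) with each of 10 motifs (x axis) within 200 bp centred on the summit, for the 54 regions at the 10 genes and for all 45475 regions. The 5-base SMAD element is the most frequent in both, in 48.1% of the member regions and 38.6% of all; 1 member region is 1.85%.

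The bases covered by peaks were nearly equal over the 10 windows together and uneven gene by gene. The windows, 1009667 bp in all, held 41155 bp under WT peaks and 40679 bp under KO peaks, a KO to WT ratio of 0.988, where the ratio of all peaks was 0.985. More bases were covered in KO in 6 windows and fewer in 4, where 49.0% of 17663 protein-coding genes with a peak in such a window had more and 50.9% fewer. The middle 50% of those genes had differences between -350 and 320 bp and the middle 90% between -1025 and 981 bp. These ranges take genes of all window lengths and peak numbers together and were not matched to the members.

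The common SMAD had the widest gap. The Smad4 window had 4459 bp covered in WT against 2348 bp in KO, a difference of -2111 bp, and the Ski window had 6878 and 5671 bp, a difference of -1207 bp; both were below the middle 90% of genes. At Smad4 the difference came with 3 regions found in WT only, with pileups of 7, 9 and 11, and its promoter peak was 1200 bp wide in WT against 1413 bp in KO. Within 2 kb of the start sites, both genes had slightly more bases covered in KO, by 213 bp at Smad4 and 91 bp at Ski, and among peaks of −log10 q 10 or more the difference at Smad4 was -120 bp.

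The other 2 windows with fewer covered bases in KO were those of the ligand and its type II receptor. Tgfb1 had 6897 bp in WT against 6504 bp in KO, and Tgfbr2 had 5908 and 4946 bp. At Tgfbr2 all 6 regions were in both lists, and the difference of -962 bp came with peaks that were narrower in KO in 4 of the 6 and wider in 2.

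More bases were covered in KO at the type I receptor, at both receptor-activated SMADs, at both inhibitory SMADs and at Skil. The differences were 647 bp at Tgfbr1 (1720 against 2367 bp), 198 bp at Smad2 (1778 and 1976) and 954 bp at Smad3 (4397 and 5351). Both inhibitors were similar, with 689 bp at Smad6 (1909 and 2598) and 935 bp at Smad7 (4339 and 5274). Skil had 774 bp more (2870 and 3644), with 3 regions found in KO only. All 6 lay within the middle 90% of genes. The sign of the difference held under all 6 other settings of window and peak strength at Tgfbr1, Smad2 and Smad3, and turned under at least 1 of them at the other 7 genes.

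**Figure D5:**
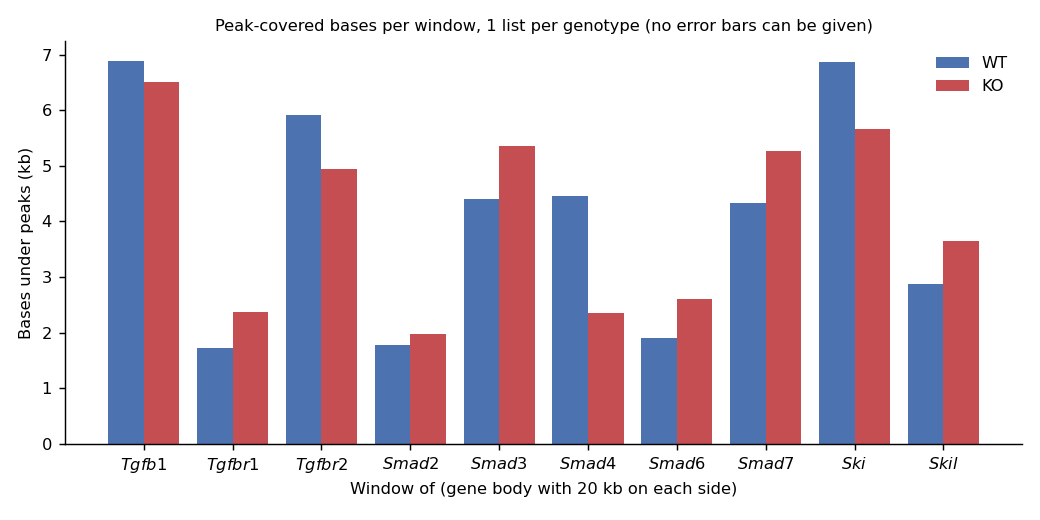
Bases under peaks (kb, y axis) in the window of each gene (x axis) in the WT list and the KO list; there is 1 list per genotype and so no error. The bars for KO are lower at Tgfb1, Tgfbr2, Smad4 and Ski and higher at the other 6 genes, and the widest gap is at Smad4, with 4459 bp for WT against 2348 bp for KO.

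The wider pathway was described in the same windows with 53 further genes in 5 groups. Of their 219 regions, 143 were in both lists (65.3%, and 64.8% of all regions), 36 in WT only and 40 in KO only. For these genes a promoter peak was any peak overlapping the 1000 bp on either side of a protein-coding transcript's start, wherever its summit lay. One was present in both lists at 48 of 53 genes. Of all protein-coding genes, 61.4% had one in WT and 60.9% in KO. Cdkn1a, which encodes the cell cycle inhibitor p21, had one in KO only, and Ltbp2, Ltbp3, Acvrl1 and Foxh1 had none. More bases were covered in KO at 27 genes and fewer at 26, where 49.0% and 50.9% of genes had more and fewer. Of 140 regions with a ratio, 5 were at least 1.5-fold higher in KO and 15 at least 1.5-fold lower (3.57% and 10.7%), where 7.64% and 7.91% of all regions were.

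By group, 4 of 12 genes of ligands and latency had more bases covered in KO, as did 5 of 10 receptors and co-receptors, 6 of 10 other SMADs and partners, 5 of 9 inhibitors and 7 of 12 targets. At least 1.5-fold lower in KO were 5 of 40, 3 of 25, 3 of 27, 2 of 24 and 2 of 24 of their regions, in the same order, and 1, 2, 1, 1 and 0 were as much higher. These counts are too small to set a group apart from the 7.91% and 7.64% of all regions. Among these genes, the differences in covered bases were most positive at Pmepa1 (1948 bp), a target that itself dampens SMAD signalling, and at Junb (1933 bp), an immediate-early target encoding an AP-1 subunit. They were most negative at Ltbp4 (-1867 bp), which encodes a protein that stores latent TGF-beta, and at Acvr2a (-1305 bp), an activin receptor. At Junb the covered bases and the promoter pileup went in different directions, with 37 in WT and 24 in KO.

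The labelled cell type was checked at the promoters of marker genes, with promoter peaks defined as for the 53 pathway genes. Of 12 genes of HSCs, 8 had a promoter peak in both lists, and Ly6a, Slamf1, Procr and Hoxb5 had none in either. Slamf1 encodes CD150, and Ly6a encodes Sca-1, on both of which the cells were sorted. Among genes of mature cells, 1 of 5 of B cells, 1 of 5 of T cells and 2 of 5 of erythroid cells had one in each list. Megakaryocyte genes had 3 of 5 in WT and 4 of 5 in KO. Of 8 granulocyte and monocyte genes, S100a8 and S100a9 had one in WT only and Elane, Mpo, Csf1r and the other 3 had none. Over all protein-coding genes the shares were 61.4% in WT and 60.9% in KO. The part of the cell composition in the differences above was not tested.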

How the data were processed

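The members and gene lists were chosen with earlier results of these data known. ATAC-seq was done on 4 samples, 2 WT and 2 KO, and the labels tie both samples of a genotype to 1 list; whether it pools their reads is unknown. Per their methods and labels, the authors used Trim Galore for trimming, Bowtie2 for alignment to mm10, Picard for taking out duplicate and mitochondrial reads, and MACS2 without a fragment model for peak calling; versions and the adapter shift are not given in the sources used here. In the deposited lists each peak has a fold enrichment from the authors' caller. It was taken as summit pileup over local background, with a pseudocount of 1 added to both. The −log10 p and −log10 q values are those of the authors' caller too, and a display score that the authors' caller derives from them was not used.

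Summit pileups were recovered by solving the Poisson model of the caller for the pileup and background that give the listed enrichment and −log10 p. Whole pileups were found within 0.001 for 99.99% of peaks in each list. Total reads are unknown, and a summit pileup, with a median of 18 in WT and 19 in KO, limits the precision. Peaks on 19 autosomes and chromosome X overlapping by at least 1 bp were merged. Log2 KO to WT pileup ratios, with no pseudocount, were taken in regions that hold 1 WT and 1 KO peak and had the median of all such regions subtracted; their intervals are exact binomial, shares have exact Clopper-Pearson intervals and pileups exact Poisson intervals, all at 95% and for counting error only. With 1 list per genotype no test was made. Genes and regions were annotated with GENCODE M21 on GRCm38.p6, and 0 peaks lay beyond a chromosome end. Windows of 200 bp centred on the summit were searched for 10 motifs on both strands. The sequence of 1 region is not reported here.

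Described were all 10 genes, their promoter regions, the 3 highest and 3 lowest ratios, and the strongest region found in 1 list only at each gene, with a −log10 q of at least 5. Of 53 further pathway genes, the 2 with the most positive and the 2 with the most negative difference in covered bases, and those with a promoter peak in 1 list or none, were named. The intron region of Tgfb1 2308 bp after its start, the remaining regions of Tgfbr2 and the Smad7 region 25083 bp after its start were chosen after their values were seen. The steps were checked on simulated lists. The analysis used Python 3.11.15 with NumPy 2.4.6, SciPy 1.17.1 and pandas 2.3.3.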

Additional observations from a re-analysis of the deposited data

How the results depend on the processing

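No paired analysis was possible because both replicates of a genotype are represented by the same list, and for the same reason no replicate could be left out. The 4 summary values were the share of regions in both lists, the ratio of covered bases, the median log2 ratio and the number of regions past 1.5-fold, and of 27 alternatives for them 21 stayed within their limits (for shares and the median the 95% interval, for the ratio 5%, for the count 1.5-fold). The share in both lists rose to 94.1% when regions with a −log10 q of at least 10 were set against the whole other list, where that of all such regions was 93.0%; with that limit in both lists the shares were 79.4% and 69.3%. In the latter case the ratio of covered bases was 0.882, where that of all peaks was 1.104. Within 2 kb of the start sites it was 1.053. The median log2 ratio was 0.0857 as pileup over the genome-wide background without centring, where that of all regions was 0.17. Past the lower limit tried there were 15 regions (7 higher and 8 lower) and past 2-fold 0. On the authors' fold enrichment, centred on its median over all regions, 0 were higher and 3 lower past 1.5-fold. Both higher Tgfbr2 intron regions dropped below that limit on this centred scale, at log2 ratios of 0.46 and 0.38. The shares of all regions were not taken at these other limits or on that scale, so these counts cannot be set against the genome.

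The sign of the difference in covered bases depended on the window at several genes. It turned at Tgfb1 with 10 kb on each side (170 bp), at Smad6 with 50 kb (-1186 bp), and at Skil in the gene body alone (-247 bp). Limited to peaks of −log10 q 10 or more, it turned at Smad7 (-778 bp) and Skil (-304 bp), and the difference was -120 bp at Smad4 and -1926 bp at Tgfbr2. Within 2 kb of the start sites it turned at Tgfbr2 (103 bp), Smad4 (213 bp), Ski (91 bp) and Skil (-247 bp). The differences at Tgfbr1, Smad2 and Smad3 kept their sign under all 6 alternatives. The cause was not tested. Depth limits single regions: of 41 ratios, 1 had an interval that left out 0.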
